A study of Mus musculus with 22 samples.

Results

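The genes described here encode enzymes and transporters that carry pyruvate and fatty acids into mitochondrial oxidation. They are 44 genes named from general knowledge of the pathways. They cover pyruvate entry, meaning the pyruvate dehydrogenase complex with its kinases and phosphatase (8 genes), and the TCA cycle (13). The others cover fatty acid uptake and the carnitine shuttle (8), beta-oxidation (11), and electron transfer from beta-oxidation with the uncoupling protein Ucp3 (4). Of these, 43 were measured among 18524 genes. Where a gene had several probes, the 1 with the highest mean over the 22 arrays was used. Acsl1, a long-chain acyl-CoA synthetase, was not measured by the probes used.

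Expression was measured in the gastrocnemius muscle, a calf muscle, of 22 C57BL/6N mice (males, 8 to 12 weeks old), with 1 Illumina MouseWG-6 v2 array per mouse. The titles of all 22 samples label them non-diabetic. Hindlimb ischemia was induced in every mouse by removal of the femoral artery, and on day 5 an LNA (locked nucleic acid) oligonucleotide was given at 12 mg/kg. The oligonucleotide was directed against miR-210 in the 11 ANTI-210 mice and was a scrambled control in the 11 SCR mice. Muscles were collected on day 7, and 200 ng of total RNA was labelled per array. All 22 muscles were ischemic, so the data hold no level of these genes in resting muscle.

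Pyruvate dehydrogenase turns pyruvate into acetyl-CoA, and its kinases, the PDK enzymes, switch it off. Long-chain fatty acids cross the mitochondrial membranes as carnitine esters and are cut to acetyl-CoA by beta-oxidation, and the TCA cycle oxidises the acetyl-CoA from both sources. Mature skeletal muscle fibres are rich in these enzymes. MiR-210 is a microRNA induced by low oxygen and known for repressing mitochondrial genes such as Iscu, which is needed to build iron-sulfur clusters. The comparison asks whether blocking miR-210 changed the transcripts of the oxidation pathways in ischemic muscle.

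The mature strand that ANTI-210 was directed against is shown first, since its seed, bases 2 to 8, in capitals, is the stretch with which a microRNA recognises its targets. It lies at chr7:141221407-141221428 on the minus strand of the GRCm38.p6 mouse genome (RefSeq).
mmu-miR-210-3p: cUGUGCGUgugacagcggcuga

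The deposited intensities are logarithms, read here as log2, so a difference of 1 is a change by a factor of 2. Probes differ in binding, so no gene's level was set against another's. Differences are ANTI-210 minus SCR, from a linear model fitted with limma to all probes. The threshold was an unadjusted p under 0.05, the threshold of the study's methods, and p-values adjusted by the Benjamini-Hochberg method run over all genes. Of the members, 3 had a mean under 6 and were taken as near the floor, namely Cpt1a, Cd36 and Sucla2. Among all genes 9696 had a mean under 6. Each of the 30 measured markers of mature fibres had a mean of 6 or more, so the labelled tissue carried its defining transcripts.

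Expression of the 43 genes differed little between ANTI-210 and SCR muscles, and it varied widely and together from mouse to mouse. A single gene, Acads, passed the unadjusted threshold, and it was lower with ANTI-210. That is 1 of 43 genes, where 3.47% of all genes passed and 2.01% passed as lower with ANTI-210. After adjustment 0 of the 43 passed with limma, where 0.0162% of all genes (3 genes) did. The differences ran from -0.32 to 0.12 with a median of -0.07, and the median over all genes was -0.0036. With array weights the member median was -0.20, and with the first principal component of all probes as covariate it was 0.03. Of the 43 differences, 32 were below 0. The members were measured with a median half-width of 0.36 for the 95% interval (0.08 to 0.79), so changes smaller than this were not detectable for a typical member. The groups of 11 mice overlapped for all 43 genes. The same count was not made over all genes, so the overlap is not read as a trait of the members. The division into ANTI-210 and SCR held a median of 0.96% of a gene's variance over the mice, and at most 22.6%.

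**Figure D1:**
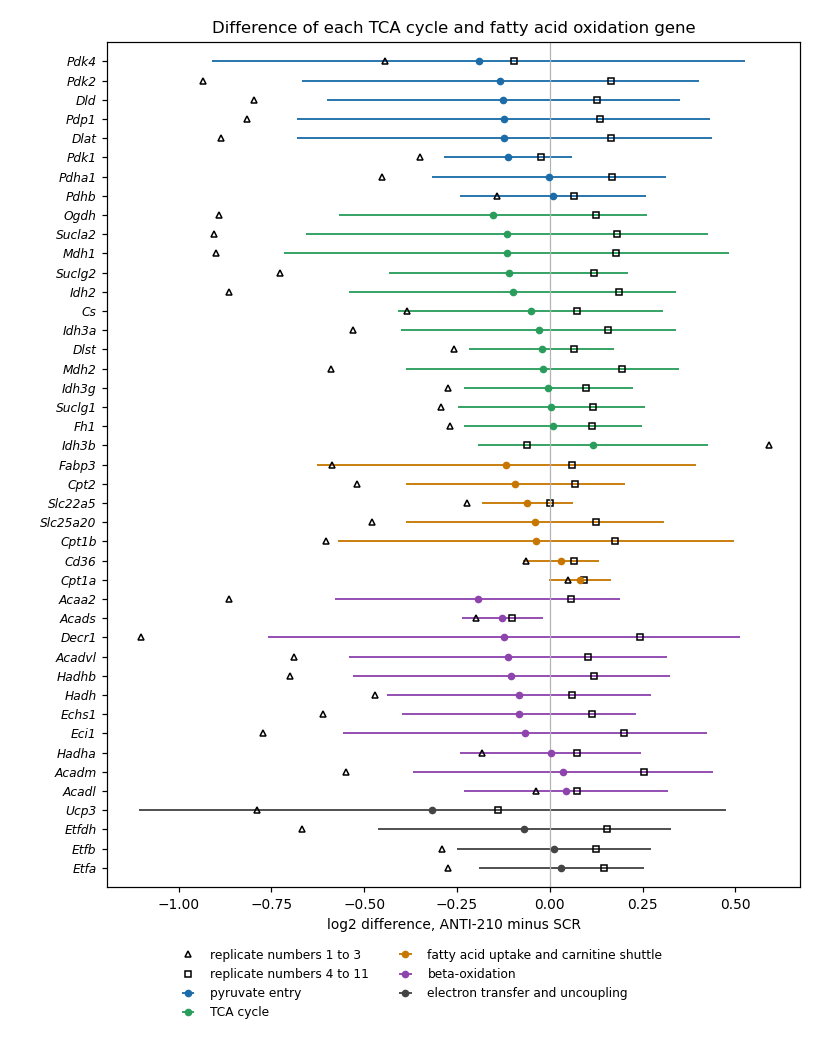
Differences of the 43 genes on the log2 scale (horizontal axis, ANTI-210 minus SCR), 1 row per gene. Filled circles with bars are the difference over 11 against 11 mice and its 95% interval, coloured by role. Open triangles are the difference within replicate numbers 1 to 3 and open squares within numbers 4 to 11. The interval leaves out 0 for Acads, and the triangles lie left of 0 for 41 genes.

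Among the 8 genes of pyruvate entry, 0 passed the threshold and the differences ran from -0.19 to 0.01. Pdk4, the kinase that fasting and fatty acids induce in muscle, had SCR values from 10.44 to 13.84 with a median of 12.98. ANTI-210 values of Pdk4 ran from 11.23 to 13.14 with a median of 12.25. The ranges overlapped, and the difference of -0.19 (SE 0.35, limma unadjusted p = 0.585) was smaller than the spread in either group (SD 1.04 in SCR and 0.58 in ANTI-210). Pdk2, the kinase of resting muscle, ran from 9.13 to 11.14 (median 10.99) in SCR and from 9.53 to 10.99 (median 10.51) in ANTI-210, a difference of -0.13 (SE 0.26, limma unadjusted p = 0.609).

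Pdk1, the kinase known as a target of hypoxia signalling, varied less. SCR values ran from 8.35 to 9.11 with a median of 8.88, and ANTI-210 values from 8.45 to 8.98 with a median of 8.68. The difference of -0.11 (SE 0.08, limma unadjusted p = 0.186) did not pass, and the groups overlapped. The further probe of Pdk1 lay near the floor and did not follow the one used (r = -0.06 over 22 mice). The subunits of the pyruvate dehydrogenase complex (Pdha1, Pdhb, Dlat and Dld) had differences of -0.00, 0.01, -0.12 and -0.13, and the phosphatase Pdp1, which switches the complex back on, had -0.12.

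In the TCA cycle 0 of 13 genes passed, with differences from -0.15 to 0.12. Mdh1, the cytosolic malate dehydrogenase, which shuttles reducing equivalents towards the mitochondrion, ran from 9.22 to 11.01 (median 10.67) in SCR and from 8.57 to 11.11 (median 10.26) in ANTI-210. The lowest ANTI-210 mouse was lower and the highest ANTI-210 mouse higher than any SCR mouse. The difference was -0.12 (SE 0.29, limma unadjusted p = 0.693). Without ANTI-210 replicate 11, the mouse at 8.57, it was 0.05.

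Succinyl-CoA ligase, the step of the cycle that makes GTP or ATP, has a shared subunit and alternative partners. Suclg2, the GTP-forming partner, ran from 9.22 to 10.40 (median 10.17) in SCR and from 9.38 to 10.22 (median 9.74) in ANTI-210. Its difference was -0.11 (SE 0.16, limma unadjusted p = 0.483). Sucla2, the ATP-forming partner, ran from 4.74 to 6.43 and from 4.85 to 6.89, a difference of -0.12 (SE 0.26, limma unadjusted p = 0.662) read near the floor. Both partners overlapped between groups, and the shared subunit Suclg1 differed by 0.0045.

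Ogdh, part of the oxoglutarate dehydrogenase complex, had the lowest difference in the cycle. Its SCR values ran from 10.86 to 12.42 (median 12.07) and its ANTI-210 values from 10.79 to 12.31 (median 11.84), a difference of -0.15 (SE 0.20, limma unadjusted p = 0.453). Idh3b, a subunit of the NAD-dependent isocitrate dehydrogenase, was the gene with the highest difference of all 43. It ran from 10.03 to 10.93 (median 10.24) in SCR and from 9.89 to 10.99 (median 10.68) in ANTI-210, a difference of 0.12 (SE 0.15, limma unadjusted p = 0.445). The other subunits of the enzyme, Idh3a and Idh3g, differed by -0.03 and -0.0036. The remaining TCA genes, Cs, Idh2, Dlst, Fh1 and Mdh2, differed by -0.10 to 0.01.

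Fatty acid uptake and the carnitine shuttle gave 0 of 7 measured genes past the threshold. Cpt1b, the muscle form of carnitine palmitoyltransferase and the entry gate of long-chain fatty acids, ran from 10.68 to 12.65 (median 12.39) in SCR and from 10.73 to 12.55 (median 12.24) in ANTI-210. The ranges nearly coincided, and the difference was -0.04 (SE 0.26, limma unadjusted p = 0.889). Cpt1a, the liver form, ran from 4.49 to 4.87 (median 4.60) in SCR and from 4.58 to 4.83 (median 4.68) in ANTI-210. Its difference of 0.08 (SE 0.04, limma unadjusted p = 0.0571, adjusted p = 0.999) was the second smallest p of the 43, for a probe near the floor.

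The carnitine transporter Slc22a5 ran from 9.25 to 9.73 (median 9.51) in SCR and from 9.20 to 9.59 (median 9.47) in ANTI-210, with a difference of -0.06 (SE 0.06, limma unadjusted p = 0.316). The probe of the fatty acid transporter Cd36 stayed between 4.45 and 4.97 in all mice, near the floor, so it gives little information on a transcript that muscle is known to hold. The fatty acid binding protein gene Fabp3, the carnitine-acylcarnitine carrier gene Slc25a20 and Cpt2, the inner-membrane transferase, differed by -0.12, -0.04 and -0.09.

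Among the 11 genes of beta-oxidation, Acads passed. It encodes the dehydrogenase of short-chain acyl-CoA. SCR values ran from 10.12 to 10.51 with a median of 10.21, and ANTI-210 values from 9.91 to 10.31 with a median of 10.10. Acads was lower by 0.13 on the log2 scale in ANTI-210 (difference -0.13, SE 0.05, limma unadjusted p = 0.0235, adjusted p = 0.999). The groups overlapped in part, with 7 of 11 ANTI-210 mice under the lowest SCR mouse. The second probe of Acads gave -0.15 (SE 0.11, limma unadjusted p = 0.163), and with limma's trended and robust variance the p for the first probe was 0.0705.

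The other dehydrogenases, Acadvl, Acadl and Acadm for very long, long and medium chains, differed by -0.11, 0.04 and 0.04. Acaa2, the thiolase that ends a round of beta-oxidation, ran from 9.67 to 11.08 (median 10.65) in SCR and from 9.66 to 10.96 (median 10.46) in ANTI-210, a difference of -0.19 (SE 0.18, limma unadjusted p = 0.304). Decr1, which is needed for unsaturated fatty acids, ran from 7.32 to 9.63 (median 9.09) and from 7.56 to 9.48 (median 8.63), a difference of -0.12 (SE 0.31, limma unadjusted p = 0.690). Both overlapped almost fully between groups. Hadha, the alpha subunit of the trifunctional protein, differed by 0.0027 (SE 0.12). Hadhb, Echs1, Hadh and Eci1 differed by -0.10 to -0.07.

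Of the genes that pass electrons from beta-oxidation to the respiratory chain, Etfdh ran from 9.88 to 11.49 (median 11.07) in SCR and from 9.97 to 11.17 (median 10.88) in ANTI-210. Its difference was -0.07 (SE 0.19, limma unadjusted p = 0.720), and Etfa and Etfb differed by 0.03 and 0.01. Ucp3, the muscle uncoupling protein, had the widest range of all 43 genes, from 5.78 to 9.34 (median 8.57) in SCR and from 6.66 to 8.77 (median 7.80) in ANTI-210. The difference of -0.32 (SE 0.38, limma unadjusted p = 0.415) was the lowest of the 43 and lay within the spread of either group (SD 1.17 and 0.58). All 4 genes overlapped between groups.

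**Figure D2:**
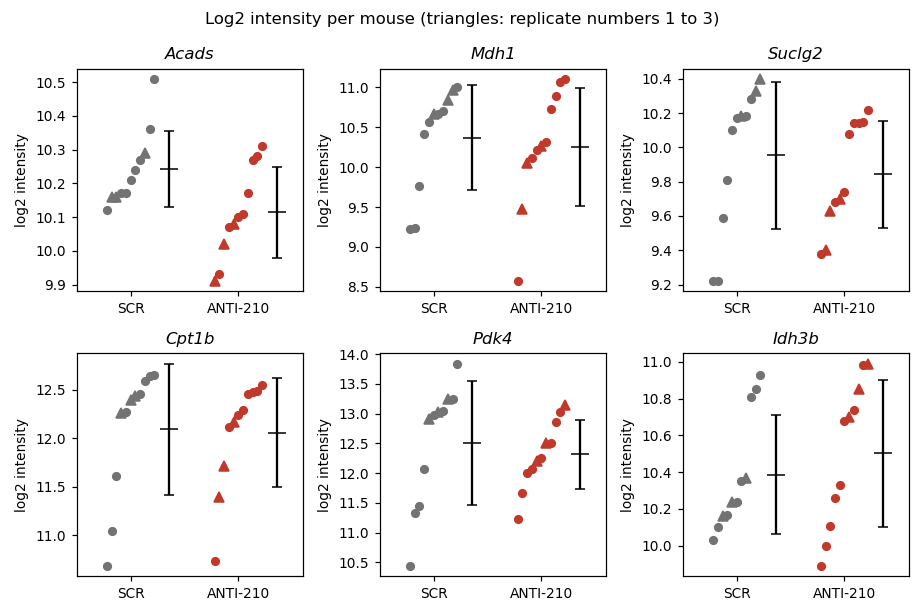
Log2 intensity of 6 genes in each mouse, SCR in grey and ANTI-210 in red, with triangles for replicate numbers 1 to 3 and circles for numbers 4 to 11. The bar beside each group is the mean and SD over 11 mice. Each gene overlaps between groups.

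The probe of a gene could matter for such small differences. A total of 24 members had more than 1 probe, with 36 further probes, and 0 of these passed an unadjusted p under 0.05 with limma. Over the 22 mice 5 of the 36 correlated negatively with the probe used. They were 3 of Dlst (r from -0.52 to -0.31) and 1 each of Idh3b (r = -0.45) and Pdk1. A second bright probe of Dlst followed the one used (r = 0.97).

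The wider pathways gave few calls as well. Of 23 other measured TCA cycle and pyruvate genes 0 passed. The smallest p were those of Ldhb (difference -0.21, limma unadjusted p = 0.199), a lactate dehydrogenase subunit, and Lias (-0.08, unadjusted p = 0.325), which makes lipoic acid. Ldhb was near the floor, with a mean of 5.90. Of 34 other fatty acid oxidation genes 0 passed, led by Hsd17b10 (-0.09, limma unadjusted p = 0.106), a mitochondrial dehydrogenase, and Acad10 (-0.17, unadjusted p = 0.125). Among 17 transcriptional regulators of oxidative metabolism Gabpa passed. It encodes the DNA-binding subunit of a factor that activates nuclear genes of mitochondrial proteins. Gabpa ran from 6.34 to 6.90 (median 6.52) in SCR and from 6.19 to 6.56 (median 6.38) in ANTI-210, and the groups overlapped. It was lower by a log2 difference of -0.15 (SE 0.06, limma unadjusted p = 0.0171, adjusted p = 0.999). Esrra (-0.19, unadjusted p = 0.392) and Ppargc1a (-0.04, unadjusted p = 0.918), the receptor and the coactivator that drive oxidative genes in muscle, did not pass. Of 34 complex I subunits of the respiratory chain 0 passed. Of 29 glycolysis and glycogen genes Eno3, the muscle enolase, passed as higher with ANTI-210 (0.08, SE 0.03, limma unadjusted p = 0.00872, adjusted p = 0.999). These counts stand beside the 3.47% of all genes.

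Differences between mice were far larger than those between treatments. The highest minus the lowest mouse of a gene ran from 0.38 to 3.56 with a median of 1.44. The SD over mice had a median of 0.41 among the members and of 0.19 among all genes. The lowest mouse was SCR replicate 6 for 23 genes, ANTI-210 replicate 11 for 12 and SCR replicate 7 for 1, so both treatments held such mice. The mean of the 43 genes, each taken relative to its own mean over all mice, ran from -0.81 to 0.34 (median 0.25) in SCR and from -0.74 to 0.29 (median 0.02) in ANTI-210. Its SD within groups was 0.37.

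The members moved together over the mice. Of 43 genes, 35 had a Pearson r above 0.7 with the mean of the other members, 28 had one above 0.9, and the median r was 0.93. Of the 903 pairs of members 62.7% had r above 0.7, and the same share over all genes was not computed. The first axis of a principal component analysis of the members held 79.9% of their variance. That of all probes held 63.6%, and it had r = -0.919 with the mean of the mature fibre markers, so a shared axis was not particular to the members. Values of 1 array share the RNA of 1 muscle piece, so these correlations are a description of 22 samples and carry no p. Acadm (r = 0.99), the medium-chain dehydrogenase, Acadvl (0.98) and Cpt1b (0.98) followed the others most closely. The non-member genes most like the member mean were P2ry2, Fgf1, Ndufs7, Cox7a1 and Pfn2, with r from 0.987 to 0.989 over 22 mice.

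**Figure D3:**
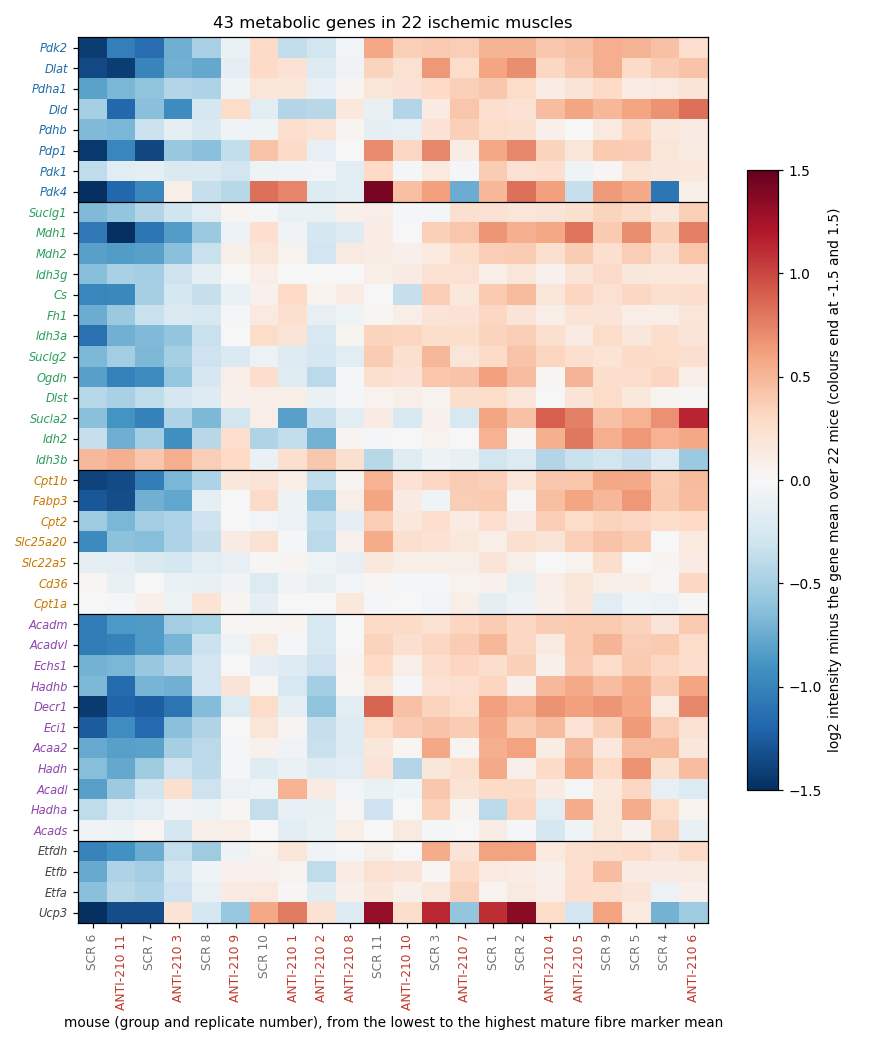
Log2 intensity of the 43 genes in the 22 mice, relative to each gene's mean. Columns are mice (SCR labels grey, ANTI-210 labels red) from the lowest to the highest mean of the mature fibre markers, rows are genes in blocks by role, and blue is below and red above the gene's mean. SCR replicate 6, ANTI-210 replicate 11 and SCR replicate 7, at the left, are blue for most genes, and Idh3b is red there.

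The shared movement ran alongside marker genes of the cells of the muscle. The member mean correlated with the mean of 30 mature fibre markers (contractile proteins, creatine kinase, myoglobin and the like) at r = 0.946 and Spearman's rho = 0.87. It was 0.948 within SCR, 0.955 within ANTI-210, 0.954 within replicate numbers 4 to 11, and 0.892 without SCR replicate 6 and ANTI-210 replicate 11. Of the 43 genes 35, or 81.4%, had r above 0.7 with the fibre markers, and 12.7% of all genes did. Without the 2 mice farthest from the median it was 32 of 43. The fibre markers were not uniform themselves. Of the 30, 13 had r above 0.7 with the mean of their own list (median r 0.635), and 1, Tpm1, was opposite to it (r = -0.90).

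The mean of the markers of regenerating fibres and satellite cells, the stem cells of muscle, ran the other way (15 genes, r = -0.918, rho = -0.875). Of the 15, 10 had r below -0.7 with the fibre markers. Pax7 and Myf5, the markers of satellite cells, were near the floor (means 4.562 and 4.515). Their r with the member mean was -0.011 and -0.056, so the list mean says little about satellite cells. The mean of macrophage and monocyte markers also ran opposite to the member mean (21 genes, r = -0.903, rho = -0.859). So did that of fibroblast and matrix markers (15 genes, r = -0.909, rho = -0.834). Of these lists, 18 of 21 and 12 of 15 genes had r below -0.7 with the fibre markers. Single genes differed, as Cd163 of the macrophage list (0.729) and Dcn of the matrix list (0.303) had a positive r with the member mean. Endothelial (r = 0.363), adipocyte (0.203) and red blood cell markers (-0.133) were less closely tied over all mice, although within replicate numbers 4 to 11 the endothelial r was 0.81. Macrophage marker means ran from -1.33 to 1.28 in SCR and from -0.85 to 1.14 in ANTI-210. In whole muscle fewer cells of a type and less RNA per cell cannot be told apart, and the part of cell makeup in each gene's values was not tested. None of 30 fibre, 15 regenerating, 21 macrophage and 15 fibroblast markers passed the unadjusted threshold between treatments with limma. Of 16 endothelial markers 6 passed, each higher with ANTI-210, where 3.47% of all genes passed in either direction. After adjustment 0 of the 16 passed. None of the 16 passed unadjusted within replicate numbers 4 to 11 (2.53% of all genes), and 8 passed within numbers 1 to 3 (34.7% of all genes).

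**Figure D4:**
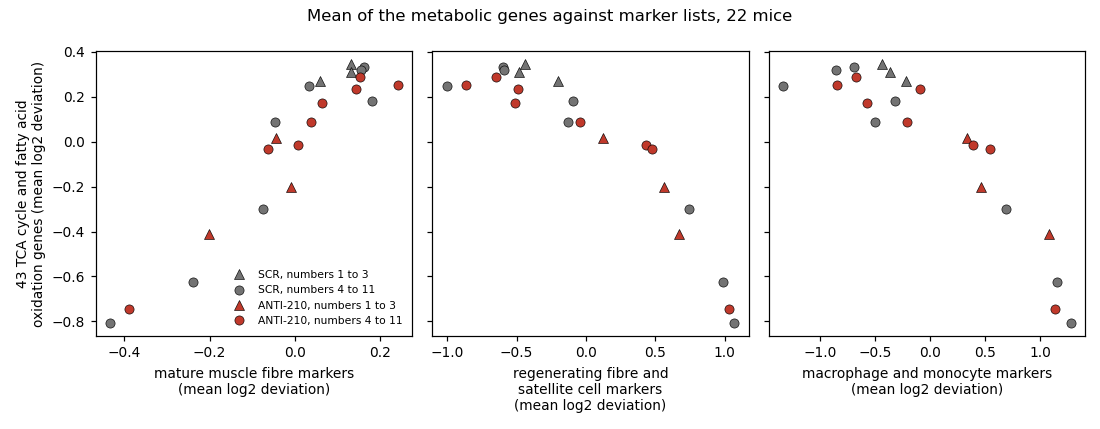
Mean log2 deviation of the 43 genes against that of 3 marker lists in each of the 22 mice, SCR grey, ANTI-210 red, triangles for replicate numbers 1 to 3. The metabolic genes are high where mature fibre markers are high and low where regenerating fibre and macrophage markers are high, and both treatments lie along the same band.

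The movement extended to the rest of energy metabolism. The mean of 34 complex I subunits correlated with the member mean at r = 0.980, and that of 29 glycolysis and glycogen genes at r = 0.981. These are correlations of list means, and single genes differed. Of the 29 glycolysis and glycogen genes, 16 had r above 0.7 with the fibre markers and 4 had r below -0.7, and Pgam1, a phosphoglycerate mutase, and Pfkp, a phosphofructokinase, were opposite to the member mean (r = -0.94 and -0.92). In the other TCA cycle and fatty acid oxidation lists some genes went opposite too. Acsl5, an acyl-CoA synthetase (r = -0.96 with the member mean), Me2, the mitochondrial malic enzyme (-0.92), and Pdk3 (-0.86) were high where the members were low.

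**Figure D5:**
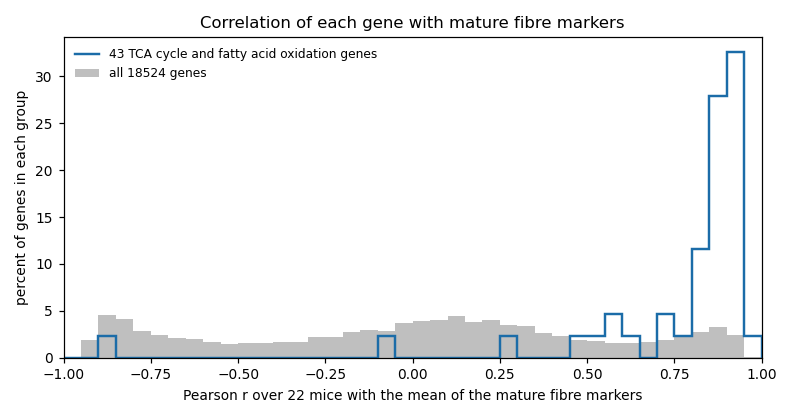
Share of genes, in percent, by their Pearson r over 22 mice with the mature fibre markers, for all 18524 genes (grey bars) and for the 43 genes (blue line). The all-gene distribution spreads over the whole axis, and 81.4% of the 43 genes lie above 0.7.

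The genes least like the other members were Idh3b, Cpt1a, Acads, Cd36 and Hadha. Idh3b was opposite to the rest (r = -0.88 with the other members, -0.86 with fibre markers, 0.93 with macrophage markers). Idh3a and Idh3g, which join Idh3b in 1 enzyme, followed the other members (r = 0.96 for each). Idh3b's dimmer probe, with a mean of 6.22, gave r = 0.43 with the other members, so the opposite course was seen with 1 of 2 probes. Cpt1a and Cd36 were near the floor. Acads (r = 0.23) and Hadha (r = 0.46) were not, and the second probe of Acads gave r = 0.72.

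Pdk4 and Ucp3 formed a pair within the set, singled out after their values were seen. They were less closely tied to the fibre markers (r = 0.57 and 0.58) than most members, and they correlated with each other at r = 0.934 (rho = 0.93, 0.948 in SCR and 0.886 in ANTI-210, and 0.894 without the 2 mice farthest in Pdk4). SCR replicate 4 shows how they parted from the rest. Its fibre marker mean was 0.18 and its member mean 0.18, yet Pdk4 was 11.33 and Ucp3 7.28, both low for SCR. In SCR replicate 11, with a fibre marker mean of 0.03, Pdk4 was 13.84 and Ucp3 9.31.

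Replicate numbers 1 to 3 stood apart from numbers 4 to 11 on the second principal component of all probes, in both treatments. Its scores ran from -24.92 to -14.94 in the first set and from -6.06 to 21.95 in the second (7.31% of variance), and the labels name no batch. Within numbers 1 to 3 the members were lower with ANTI-210, with a median difference of -0.53 over the 43 genes and 41 differences below 0. For 33 genes each of the 3 ANTI-210 mice lay under each of the 3 SCR mice, where 19.0% of all genes did. For 1 gene, Idh3b, each lay above, where 19.1% of all genes did. With limma in this set 35 members had an unadjusted p under 0.05, where 34.7% of all genes did. An exact permutation test of 3 against 3 cannot give a p below 0.1. Suclg2 ran from 10.18 to 10.40 in these SCR mice and from 9.40 to 9.70 in these ANTI-210 mice, and Decr1 showed the lowest difference (-1.10).

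Marker lists moved with treatment in these 6 mice too. The fibre marker mean was 0.06 to 0.13 in SCR and -0.20 to -0.01 in ANTI-210, the macrophage mean was -0.43 to -0.21 in SCR and 0.34 to 1.08 in ANTI-210, and the regenerating fibre mean was -0.48 to -0.21 in SCR and 0.12 to 0.67 in ANTI-210. Their part in the members' differences was not tested.

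Within numbers 4 to 11, with 8 mice per group, the median difference was 0.12 and 38 of 43 differences were above 0. By limma 0 members passed the unadjusted threshold, where 2.53% of all genes did. The smallest p of a two-sided exact permutation test was 0.0887, for Cpt1a, with 43 genes tested. The difference between the sets was tested by an interaction term in limma, added after the data were seen. It passed unadjusted for 6 members (Suclg2, Idh2, Acaa2, Ogdh, Echs1 and Etfdh), where 12.2% of all genes passed, and for 0 of all genes after adjustment. For Suclg2 the difference was -0.73 in numbers 1 to 3 and 0.12 in numbers 4 to 11 (limma interaction, unadjusted p = 0.0131, adjusted p = 0.402).

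Promoter sequences were searched because the members moved together. RefSeq windows of GRCm38.p6, from 250 bases before to 50 after a gene's start, were at hand for 39 of the 44 genes and 27025 genes in all, and both strands were read. The element of the estrogen-related receptors (TNAAGGTCA) was in 0 of 39 members and 1.43% of all genes. A PPAR element (2 copies of AGGTCA separated by 1 base) was in 0 of 39 and 0.0481% of all. Motifs of GABP (CCGGAAGT) and NRF1 (GCGCATGC), chosen after values were seen, were in 3 members (7.69%, all genes 4.31%) and 4 members (10.3%, all genes 3.05%). All genes here means the 27025 with a window, whether or not they were measured or expressed in muscle, so the shares are of unlike sets. No match says only that these letters are not in the window, and a match is a description of letters. The 30 bases around each match are shown to place the shared letters beside the genes that moved together, with the match in capitals on the gene's strand.
Dlst (GABP, chr12:85110822-85110851, plus): cggccggtctcACTTCCGGttgctgccggg
Cpt2 (GABP, chr4:107923584-107923613, minus): cctatcggtgcCCGGAAGTgcccctgtggg
Slc25a20 (GABP, chr9:108662046-108662075, plus): gaggagggcagCCGGAAGTagacttcaggg
Ogdh (NRF1, chr11:6292532-6292561, plus): ctaggtgttgtGCGCATGCgtaactcaact
Acadm (NRF1, chr3:153944783-153944812, minus): gggagcaggacGCATGCGCagagggccttc
Etfa (NRF1, chr9:55512330-55512359, minus): gagggcgtggcGCGCATGCcagcgtctcgg
Etfdh (NRF1, chr3:79628877-79628906, minus): atgcttctaggGCGCATGCgcacacgcgag
The 7 genes with a match had r from 0.91 to 0.99 with the other members. Such values were usual in the set, as 28 of all 43 members had r above 0.9 (median 0.93). The window of Etfdh holds a second NRF1 match, on the other strand, that overlaps the 1 shown. GABP's own subunit gene Gabpa had r = 0.29 with the member mean over 22 mice. Its difference between treatments passed only before adjustment (limma adjusted p = 0.999). It was -0.35 in numbers 1 to 3 and -0.074 in numbers 4 to 11. A part of GABP or NRF1 in the members' values was not tested.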

How the data were processed

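Gastrocnemius RNA of 22 mice was measured on 1 array each. The authors read bead summaries from GenomeStudio and normalized intensities between arrays by quantiles. Their methods also name a filter of probes on expression and quality in beadarray. The deposited table holds 1 log2 value per probe and array (38563 probes). Of these probes 62.6% had a mean under 6, so dim probes remain in it and in the shares over all genes. No source names the base of the logarithm, and log2 was taken because the deposited values run from 4.35 to 15.4. The table holds 0 columns of values of no sample. Versions of these tools and the filter's limits are not given in the sources used. Bead counts and detection p-values were not used here, and the number of arrays limits the precision.

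Gene names came from the platform annotation: 32093 probes carry 1 symbol, 16 several and 6454 none, and 32035 of the first had an Entrez ID in the gene table, with 0 symbols updated. Groups and replicate numbers came from the sample titles. Each array was taken as 1 mouse, from the group sizes in the methods. Differences were fitted in R 4.3.3 with limma 3.58.1 (lmFit and eBayes, two-sided). Correlations and exact permutation tests used Python 3.11.15, numpy 2.4.6, pandas 2.3.3 and scipy 1.17.1. The fit was tested on simulated data. A mean under 6 was taken as near the floor.

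The members and lists were chosen with earlier results of these data known. Genes with full values are those past the unadjusted threshold, in each role the 2 with the smallest p and the 1 with the widest SD, Mdh1 and Suclg2 (which the study also measured by qPCR), the isoforms of Cpt1, of succinyl-CoA ligase and of PDK, and the 5 members least like the others. The study presented the genes it checked by qPCR as differentially expressed, and reported a general concordance of qPCR with the arrays. Here Mdh1 and Suclg2 did not pass the unadjusted threshold. Other pathway genes are named where past the threshold, otherwise by the 2 smallest p of a list. Esrra, Ppargc1a, Acsl5, Me2, Pdk3, Pgam1 and Pfkp were named after their values were seen. A list mean averages its genes after each was centred on its own mean over the 22 arrays.

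Alternatives were renewed quantile normalization, cyclic loess, median centring, trended and robust variance, array weights, a filter on dim probes, averaging the probes of a gene, a replicate block, the methods' t-test, the fibre marker mean or the first principal component as covariate, both sets of replicate numbers, the set as a block, and leaving out each array.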

Additional observations from a re-analysis of the deposited data

How the results depend on the processing

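The count of members past the unadjusted threshold stayed at 1 (0 higher, 1 lower) under renewed quantile normalization, cyclic loess, median centring, the filter on dim probes (41 members left), the methods' t-test and the fibre marker covariate. It was 0 with trended and robust variance and with the mean of all probes, where Acads was lost. With array weights it was 4 (Cpt1a higher, Pdk1, Acaa2 and Acads lower, so 1 and 3), while 10.4% of all genes passed. It was 2 (1 higher) with the replicate block, with the first principal component as covariate and with the set as a block. Within numbers 1 to 3 it was 35 (1 higher, 34 lower, median difference -0.53), and within numbers 4 to 11 it was 0. The replicate block adds Cpt1a (0.08, limma unadjusted p = 0.0258). Pairing by number was checked on each gene's deviations from its group mean. These deviations correlated from -0.69 to 0.68 between same-numbered arrays (4 of 11 pairs over 0.1). By this measure 2 of 22 arrays correlated best with their own number, so the numbers are not read as pairs. The cause of these changes was not tested.

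Leaving out 1 array gave 1 to 2 members past the threshold (0 to 1 higher, 1 to 2 lower). The second was Pdk1 without SCR replicate 6 (-0.16) and Cpt1a without SCR replicate 7 (0.09), SCR replicate 8 (0.11) or ANTI-210 replicate 3 (0.09). Over the members the median difference came to 0.0275 once the first principal component entered the fit, to -0.20 when arrays were weighted, and to 0.12 in numbers 4 to 11. Without 1 array it ran from -0.15 to 0.02, the highest without ANTI-210 replicate 11. Differences that changed sign ran from -0.18 to 0.10 for Cpt1b, -0.053 to 0.058 for Hadha, -0.23 to 0.053 for Mdh1 and -0.17 to 0.019 for Etfdh.

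Other reversals were Hadha under median centring (-0.0036), array weights (-0.093) and numbers 1 to 3 (-0.18), and Cd36 in numbers 1 to 3 (-0.063). With the first principal component as covariate the values were Pdk2 0.0084, Sucla2 0.0089, Mdh1 0.039, Cpt1b 0.10, Decr1 0.049 and Etfdh 0.0275. In numbers 4 to 11 they were Pdk2 0.17, Idh3b -0.061, Ogdh 0.12, Sucla2 0.18, Suclg2 0.12, Mdh1 0.18, Slc22a5 0.0012, Cpt1b 0.18, Acaa2 0.056, Decr1 0.24 and Etfdh 0.155. None of these named differences passed the unadjusted threshold in limma.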
